A study of Homo sapiens with 6 samples.

Results

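Open chromatin at the genes of the translation initiation factors was described by ATAC-seq in Huh7, a long-established cell line from a human hepatocellular carcinoma. In this assay a transposase cuts and tags accessible DNA. The set holds every RefSeq protein-coding gene whose symbol is EIF followed by a digit, without the EIF2AK kinases, which gave 52 of 20056 genes. Of these, 51 of 19974 lie on chromosomes 1 to 22 and X and were assessed. EIF1AY, on the Y chromosome, was not analysed here. In all 3 groups the endogenous ARID1A gene, which encodes a subunit of the SWI/SNF chromatin remodelling complex, had been knocked out, and a Flag-tagged ARID1A was stably put back by lentivirus. The first group carried ARID1A with the V2084D missense change and a knockdown of STUB1, a ubiquitin ligase (V2084D shSTUB1), the second carried ARID1A V2084D without that knockdown (V2084D), and the third carried wild-type ARID1A (WT). No control hairpin is named in the titles of groups without shSTUB1, and no source used here says whether a line is a single clone. Each group had 2 libraries, and nothing says that these came from separate cultures, so their spread may be technical.

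Cap-dependent initiation begins when eIF2, loaded with GTP and the initiator methionyl-tRNA, joins the small ribosomal subunit with eIF1, eIF1A, eIF3 and eIF5. The cap-binding complex eIF4F recruits this assembly to an mRNA, the subunits scan to a start codon, and eIF5B then joins the large subunit. eIF2B recharges eIF2 with GTP, a step blocked when stress kinases phosphorylate eIF2 alpha, and the eIF4E-binding proteins hold eIF4E inactive until mTOR signalling releases it. The factors are made in nearly every cell, and several of them are known for raised levels in tumours, liver cancer included.

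A gene was counted as having a gene-end peak in a library when a deposited peak reached within 1000 bp of its annotated start or end. The lists differed in length, with 21728 and 15326 summits in the V2084D shSTUB1 libraries, 9231 and 30768 in the V2084D libraries, and 10441 and 7401 in the WT libraries (replicate 1, then replicate 2, here and below). The median summit rested on 8 to 12 reads. No count of sequenced reads was used, so a relative depth was estimated from the lists. It is the lowest local background recovered at any listed summit, as a ratio to the smallest such value among the libraries. It spanned 1 to 1.70, with the least in WT replicate 2 and the most in V2084D replicate 2. A gene without a listed peak is therefore one where none was called at that depth, not one shown to be closed. Of 15 hepatocyte markers, 4 and 2 had a gene-end peak in V2084D shSTUB1, 3 and 5 in V2084D, and 2 and 2 in WT. Of all protein-coding genes, 48.1% and 40.6% had one in V2084D shSTUB1, 31.1% and 54.7% in V2084D, and 32.3% and 24.2% in WT. No library had one at 10 of the 15, among them HNF4A, ALB and AFP, against 41.8% of all genes. FOXA1, FOXA3, CEBPA, APOA1 and TF had one in at least 1 library. None of 5 leukocyte markers had a peak in any library. Of 4 endothelial markers at most 1 had a peak, and of 6 fibroblast and stellate markers 1 or 2, with COL1A1 in all 6 libraries.

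Promoters of some of the genes named below are shown first, as the 250 bases upstream of the RefSeq start site (build GRCh38.p14), read 5′ to 3′ on the gene's strand. EIF3B, EIF6 and EIF5A2 had gene-end peaks in both libraries of V2084D and of V2084D shSTUB1 and in neither WT library. The EIF6 peak of V2084D replicate 1 was at the far end of the gene, not at this promoter. EIF2S1, EIF1 and EIF2B2 had the highest mean ranks among the initiation factor genes with peaks in all 6 libraries. Capitals mark matches, on either strand, to the GC box (GGGCGG), the ETS motif (CCGGAAG), the CCAAT box (CCAAT), the E-box (CACGTG), the NRF1 core (GCATGCGC) and the YY1 motif (AANATGGCG).
EIF3B (chr7:2354577-2354826, plus strand): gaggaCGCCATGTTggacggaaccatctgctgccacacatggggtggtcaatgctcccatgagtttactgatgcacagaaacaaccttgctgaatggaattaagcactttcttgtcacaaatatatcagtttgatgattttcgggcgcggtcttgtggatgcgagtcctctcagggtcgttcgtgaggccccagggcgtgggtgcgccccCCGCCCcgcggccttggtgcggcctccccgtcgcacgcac
EIF6 (chr20:35284773-35285022, minus strand): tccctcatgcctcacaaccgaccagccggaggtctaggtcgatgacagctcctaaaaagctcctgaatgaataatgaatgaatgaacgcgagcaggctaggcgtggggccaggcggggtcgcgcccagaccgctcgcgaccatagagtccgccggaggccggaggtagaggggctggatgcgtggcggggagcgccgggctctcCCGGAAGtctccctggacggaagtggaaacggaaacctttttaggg
EIF5A2 (chr3:170908638-170908887, minus strand): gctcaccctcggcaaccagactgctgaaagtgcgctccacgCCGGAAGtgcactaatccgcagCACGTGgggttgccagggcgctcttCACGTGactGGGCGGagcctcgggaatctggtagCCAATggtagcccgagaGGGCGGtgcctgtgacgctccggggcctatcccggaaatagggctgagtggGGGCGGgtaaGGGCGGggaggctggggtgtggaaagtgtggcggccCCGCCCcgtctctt
EIF2S1 (chr14:67360078-67360327, plus strand): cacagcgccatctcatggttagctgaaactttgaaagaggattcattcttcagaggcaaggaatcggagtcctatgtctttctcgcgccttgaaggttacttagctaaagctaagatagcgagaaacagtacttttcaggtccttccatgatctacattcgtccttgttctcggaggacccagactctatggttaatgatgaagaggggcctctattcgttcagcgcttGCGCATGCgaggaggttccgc
EIF1 (chr17:41688635-41688884, plus strand): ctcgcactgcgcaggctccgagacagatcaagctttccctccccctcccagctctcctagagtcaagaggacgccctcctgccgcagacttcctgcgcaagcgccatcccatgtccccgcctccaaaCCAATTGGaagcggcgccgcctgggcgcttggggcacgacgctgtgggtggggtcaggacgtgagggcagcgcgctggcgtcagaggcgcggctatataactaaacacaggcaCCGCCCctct
EIF2B2 (chr14:75002671-75002920, plus strand): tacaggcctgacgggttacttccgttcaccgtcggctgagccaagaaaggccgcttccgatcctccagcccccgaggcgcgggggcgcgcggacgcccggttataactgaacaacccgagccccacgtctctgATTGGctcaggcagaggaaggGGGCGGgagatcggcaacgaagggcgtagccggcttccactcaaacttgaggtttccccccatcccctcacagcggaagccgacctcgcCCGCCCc

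The EIF5A2 window held 9 matches, 5 of them GC boxes, and was 66.8% G or C. EIF3B held 2, a GC box at -40 and a YY1 motif at -245, counted from the start site to the first base of the match and negative upstream, and EIF6 held a single ETS motif at -46. EIF2S1, the gene with the highest-ranked peaks, had the least G and C of the 6 at 48%, and its only match was the NRF1 core at -21. EIF1 held 2 CCAAT boxes, on opposite strands and overlapping each other, and no match overlapped a match of another motif in these windows. A match is a description of letters and not evidence that a protein binds there.

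The initiation factor genes more often had a gene-end peak than protein-coding genes as a whole in every library. In V2084D shSTUB1, 43 and 37 of 51 had one, which is 84.3% and 72.5% against 48.1% and 40.6% of all genes. In V2084D the counts were 36 and 45, or 70.6% and 88.2% against 31.1% and 54.7% of all genes. In WT they were 34 and 24, or 66.7% and 47.1% against 32.3% and 24.2%. The counts were highest in V2084D replicate 2, the longest list, and lowest in WT replicate 2, the shortest. V2084D shSTUB1 and V2084D overlapped, and both WT counts lay below those of the other groups.

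The mean number of initiation factor genes with a peak was 40 ± 4.24 in V2084D shSTUB1, 40.5 ± 6.36 in V2084D and 29 ± 7.07 in WT (SD, n = 2 each). V2084D exceeded WT by 11.5 genes (two-sided exact permutation p = 0.333, adjusted over the 3 comparisons p = 0.5). V2084D shSTUB1 exceeded WT by 11 genes (exact permutation p = 0.333, adjusted p = 0.5) and differed from V2084D by -0.5 genes (exact permutation p = 1, adjusted p = 1). With 2 libraries against 2, the smallest p is 0.333, so no difference could pass a threshold of 0.05. The last difference had the opposite sign when V2084D replicate 2, which has the longest list, was left out, at 4 genes.

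**Figure D1:**
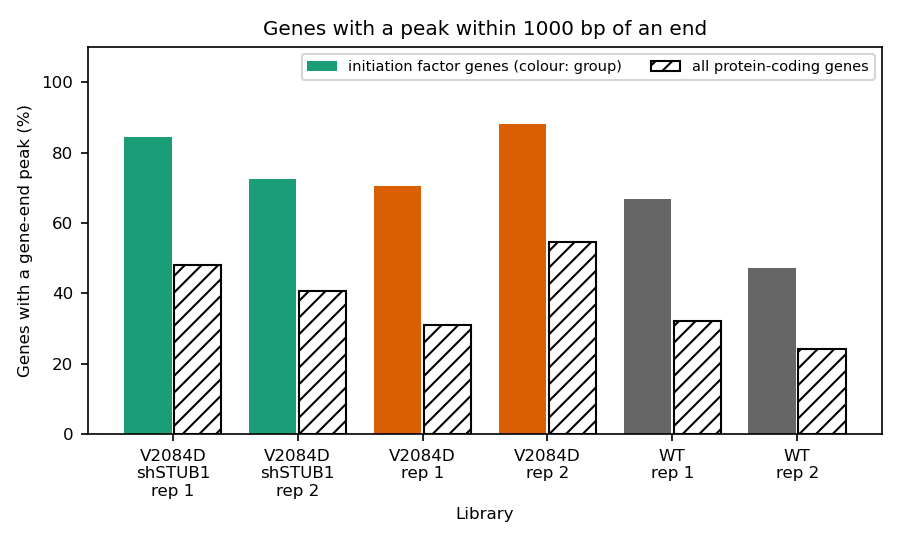
Share of genes with a peak within 1000 bp of an end (y axis, %) in each of the 6 libraries (x axis), as filled bars for the 51 initiation factor genes and hatched bars for all 19974 protein-coding genes. The filled bar is the higher in every library, at 84.3% against 48.1% in V2084D shSTUB1 replicate 1 and 47.1% against 24.2% in WT replicate 2.

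Of the 51 genes, 18 (35.3%) had one in all 6 libraries, against 15.8% of all protein-coding genes. A further 27 (52.9%, against 42.3%) had one in 1 to 5 libraries, and 6 (11.8%, against 41.8%) had none. Of the 27, 10 were missed in a single library, which was WT replicate 2, the shortest list, for EIF1B, EIF2B3, EIF3I, EIF3M, EIF4B and EIF4G2. For EIF1AD and EIF4E it was WT replicate 1, for EIF4A3 it was V2084D replicate 1, and for EIF5B it was V2084D shSTUB1 replicate 2. The 6 genes without a gene-end peak were EIF2S3B and EIF5AL1, which are copies of EIF2S3 and EIF5A, EIF4A2, EIF4E3, EIF4EBP3 and EIF4ENIF1. Short reads from such near-identical copies, and from EIF3C and EIF3CL, cannot be placed with certainty, so a missing or present peak at any of them is uncertain.

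Within a list, each gene's strongest gene-end peak was ranked by its -log10 q as a percentile of all peaks of that list, with 100 the strongest. The median percentile of the initiation factor genes was 75.5 and 74.6 in V2084D shSTUB1, against 66.9 and 62.1 for all genes with a peak. In V2084D it was 64.4 and 84.7, against 57.2 and 72.5. In WT it was 77.5 and 57.0, against 59.6 and 57.6. The members ranked above the genes as a whole in 5 of the 6 libraries and marginally below them in WT replicate 2. The fold, the authors' value of reads over local background at the summit, had medians of 6.32 and 6.58 in V2084D shSTUB1, 5.88 and 7.35 in V2084D, and 6.58 and 5.77 in WT. The same medians over all genes with a peak were 6.08 and 5.91, 5.62 and 6.47, and 5.85 and 5.77. Only genes with a peak enter these medians, so they say nothing of the genes without one.

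**Figure D2:**
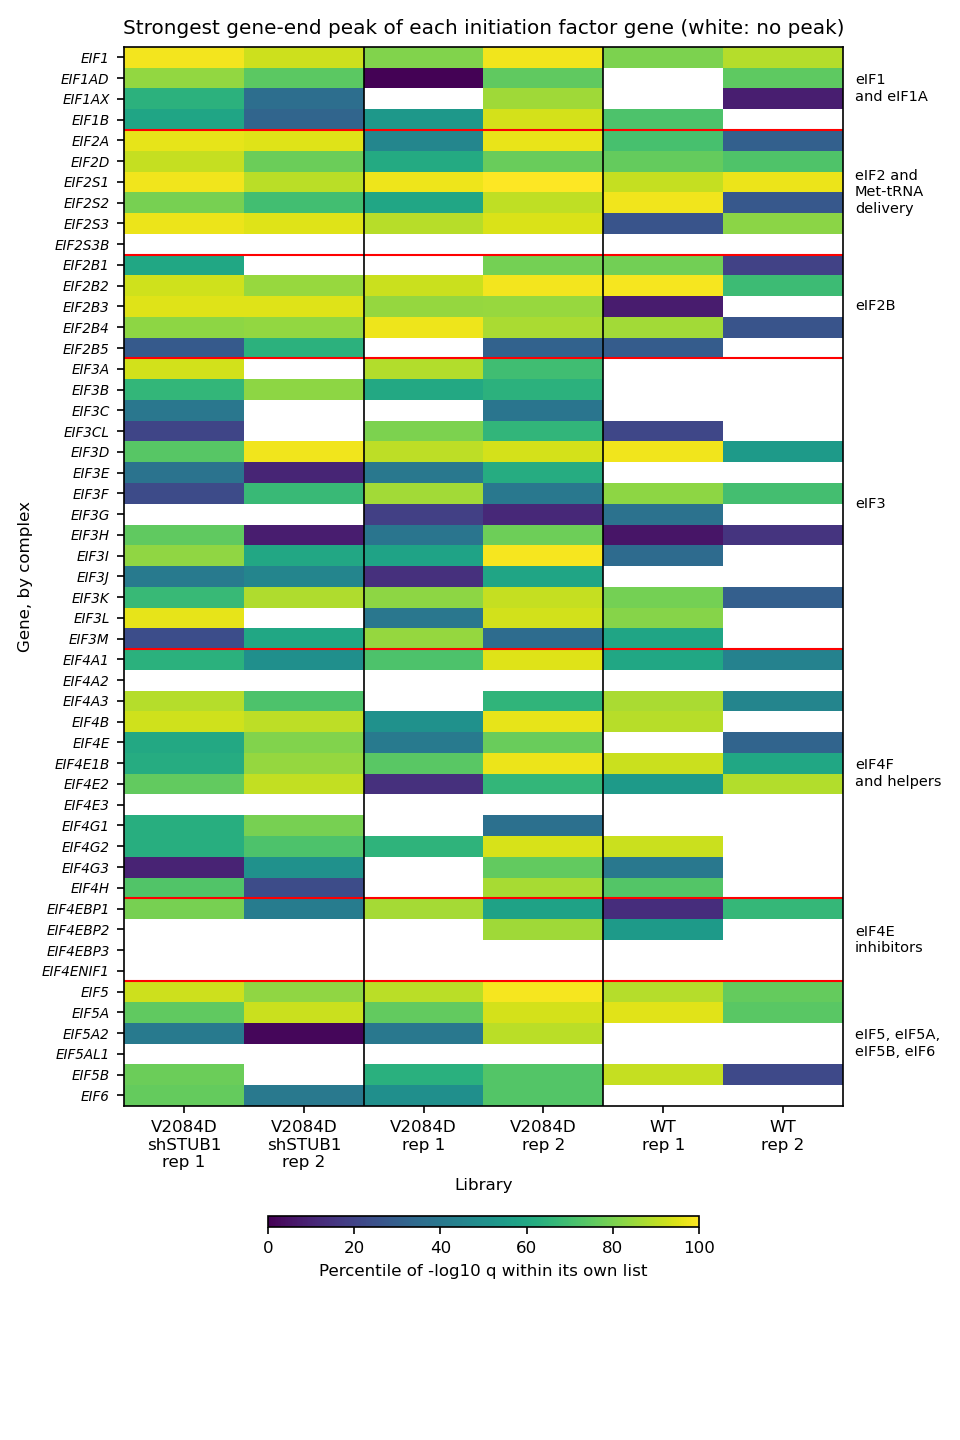
Percentile of -log10 q within its own list (colour scale, 0 to 100) of the best gene-end peak at each of the 51 genes (rows, by complex) in each of the 6 libraries (columns), with white where no peak was listed. The eIF2 rows are filled in all libraries except EIF2S3B, and white cells in the eIF3 and eIF4F rows are most frequent in WT replicate 2, which has peaks at 4 of 14 and 5 of 12 of these genes.

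The genes of eIF2 and of the other carriers of initiator tRNA had the most regular peaks. Of 6, the same 5 had a peak in all 6 libraries, and their peaks had a median percentile of 89.5 and a median fold of 6.98. EIF2S1 encodes eIF2 alpha, the subunit phosphorylated by stress kinases. Its folds were 8.0 and 6.79 in V2084D shSTUB1, 7.98 and 12.3 in V2084D, and 7.26 and 8.13 in WT. These rested on 27 and 18, 18 and 41, and 16 and 19 reads at the summit, the groups overlapped, and the mean percentile of 95.4 was the highest of all members. EIF2S3, the X-linked gene of the GTP-binding gamma subunit, had folds of 9.24 and 8.49 in V2084D shSTUB1, 7.07 and 8.18 in V2084D, and 4.84 and 6.67 in WT. Both V2084D shSTUB1 values were above the others and both WT values below them, which is the order of values and was not tested. No share of all genes with this order is given, and the WT libraries also had the lowest estimated relative depth. EIF2S2 (eIF2 beta) had folds of 6.82 and 6.47 in V2084D shSTUB1, 5.75 and 8.20 in V2084D, and 9.88 and 4.89 in WT, so both its highest and its lowest value were in WT libraries. EIF2A and EIF2D, alternative carriers of initiator tRNA, had peaks throughout, with folds of 5.0 to 8.86 and 5.81 to 8.51.

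The eIF2B genes encode the exchange factor that recharges eIF2, and their inherited loss of function causes a disease of brain white matter. Of 5, a peak was listed for 5 and 4 in V2084D shSTUB1, 3 and 5 in V2084D, and 5 and 3 in WT, with a median percentile of 83.8. EIF2B2 (beta) had folds of 8.12 and 7.22 in V2084D shSTUB1, 7.65 and 10.7 in V2084D, and 9.91 and 6.33 in WT, with overlap between all groups. EIF2B4 (delta) also had a peak in every library, with folds of 4.84 to 8.26. EIF2B3 (gamma) had 8.62 and 8.67 in V2084D shSTUB1, 6.82 and 7.69 in V2084D, and 4.12 in WT replicate 1, with no peak in WT replicate 2. The catalytic subunit gene EIF2B5 had the lowest ranks of the complex, with a mean percentile of 38.2 over 4 libraries and none in V2084D replicate 1 or WT replicate 2.

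Among the start codon selection factors, EIF1 had a peak in every library, with folds of 8.77 and 7.36 in V2084D shSTUB1, 6.37 and 8.33 in V2084D, and 6.36 and 6.69 in WT. Its mean percentile of 89.8 was second among all members. Both V2084D shSTUB1 folds lay above both WT folds, and the V2084D folds overlapped with each of the other groups. This order was not tested, and no share of all genes with it is given. EIF1B, its close relative, had folds of 4.95 to 8.94 in 5 libraries, and the X-linked eIF1A gene EIF1AX had 4.17 to 8.42 in 4. EIF1AD, which encodes an eIF1A-like protein, ranged from 3.57 on 4 reads in V2084D replicate 1 to 7.61 in V2084D shSTUB1 replicate 1.

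eIF3 is the large scaffold that binds the small ribosomal subunit and bridges it to eIF4F. Of its 14 genes, 13 and 9 had a peak in V2084D shSTUB1, 13 and 14 in V2084D, and 9 and 4 in WT. The other 37 members had 30 and 28, 23 and 31, and 25 and 20 in the same libraries. The eIF3 peaks had the lowest median percentile of the 7 groups of factors, at 61.0, with a median fold of 5.96. Peaks in all 6 libraries were listed for 4, EIF3D, EIF3F, EIF3H and EIF3K. EIF3D, whose product can bind the cap of some mRNAs, led the complex by rank with a peak in every library. Its folds were 6.06 and 8.97 in V2084D shSTUB1, 6.94 and 7.74 in V2084D, and 8.93 and 5.75 in WT, again with overlap. EIF3A, the largest core subunit, followed, and its values are given with the group comparison below. EIF3G, an RNA-binding subunit, had the lowest mean percentile of all members, at 22.8.

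In the eIF4F group, which holds the cap-binding, scaffold and helicase genes and their helpers, 10 and 10 of 12 had a peak in V2084D shSTUB1, 6 and 10 in V2084D, and 8 and 5 in WT. EIF4B, which stimulates the helicase, had the highest mean percentile of the group, at 83.7. Its folds were 8.12 and 7.62 in V2084D shSTUB1, 5.43 and 9.68 in V2084D, and 7.83 in WT replicate 1, with none in WT replicate 2. EIF4E1B, an oocyte form of the cap-binding protein, ranked next but by a peak at its far end, 16487 to 16715 bp from its own start site and within reach of the start of TSPAN17. EIF4E, the main cap-binding protein, had folds of 5.32 and 6.58 in V2084D shSTUB1, 5.10 and 6.10 in V2084D, and 4.95 in WT replicate 2, with none in WT replicate 1. The 2 helicase genes stood apart. EIF4A1 had a peak in every library, with folds of 5.19 to 8.44, while for EIF4A2 the nearest peak lay 16545 to 349384 bp from a gene end. EIF4A3, the related helicase of the exon junction complex, had folds of 5.38 to 7.73 in 5 libraries. The scaffold genes EIF4G2 and EIF4G3 had peaks in 5 and 4 libraries, with folds of 5.86 to 8.51 and 4.17 to 7.37.

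Of the 4 genes for proteins that inhibit or carry eIF4E, 1 and 1 had a gene-end peak in V2084D shSTUB1, 1 and 2 in V2084D, and 2 and 1 in WT. EIF4EBP1, the best-studied mTOR-regulated inhibitor, had a peak in every library, with folds of 6.61 and 5.14 in V2084D shSTUB1, 6.47 and 5.06 in V2084D, and 4.35 and 5.94 in WT. EIF4EBP2 had one in V2084D replicate 2, at 7.35, and in WT replicate 1, at 5.84. EIF4ENIF1, the carrier of eIF4E into the nucleus, had no gene-end peak, but its promoter-table start site lies inside the longest annotated gene span. Within 1000 bp of that start site, peaks had folds of 3.67 and 3.61 in V2084D shSTUB1 and 5.94 and 7.74 in V2084D, on 7 and 6 and on 11 and 23 reads, and neither WT library had one.

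Among the late factors, EIF5, which triggers GTP hydrolysis on eIF2, had folds of 6.97 and 6.61 in V2084D shSTUB1, 6.88 and 9.17 in V2084D, and 7.14 and 6.14 in WT, and a mean percentile of 88.2. EIF5A, whose hypusine-bearing product also serves elongation, had 6.20 and 7.56 in V2084D shSTUB1, 6.02 and 8.01 in V2084D, and 8.18 and 6.19 in WT. Both had peaks in all libraries and overlapping groups. EIF5B, the GTPase of subunit joining, had folds of 4.50 to 7.26 and lacked a peak in V2084D shSTUB1 replicate 2.

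For each pair of groups a gene was then counted when both libraries of one group and neither of the other had a gene-end peak. Between V2084D and WT, 6 of 51 initiation factor genes (11.8%) had peaks in each V2084D library and in neither WT library, against 5.07% of all genes, and 0 had the reverse pattern, against 0.0501% of all genes and 0.122% of genes with a peak in at least 2 of these 4 libraries. Among genes with a peak in at least 2 of these 4 libraries, which the members more often had, the shares were 14% (6 of 43) and 12.3%, so the members' share lay near the background. The 6 were EIF3A, EIF3B, EIF3E and EIF3J of eIF3, EIF5A2 and EIF6. EIF5A2 is the second eIF5A gene, known for amplification in tumours, and EIF6 keeps the large ribosomal subunit from joining too early.

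EIF3A had a fold of 8.26 on 18 reads in V2084D shSTUB1 replicate 1 and folds of 7.14 and 5.94 in V2084D, on 12 and 16 reads, the last 2 at chr10:119080811-119081010 and chr10:119080775-119081463. V2084D shSTUB1 replicate 2 and both WT libraries had no peak there. EIF3B, a core subunit, had 6.32 and 7.0 in V2084D shSTUB1 and 5.61 and 5.76 in V2084D, with summits at -227 and -231 bp in V2084D shSTUB1 and at -248 and -252 bp in V2084D, counted from the start site, inside or just beyond the window printed above. The 4 summits lay close together, and neither WT library had one. This start site, chr7:2354827, lies inside the annotated gene span, which begins at 2354086, and an end of SNX8 lies nearby at 2354497. EIF3E had 5.29 and 4.23 in V2084D shSTUB1 and 5.26 and 6.38 in V2084D, on 8 and 5 and on 7 and 11 reads. EIF3J, a loosely bound subunit that helps recycling, had 5.14 and 5.43 in V2084D shSTUB1 and 4.38 and 5.56 in V2084D, on 10 and 9 and on 6 and 14 reads. Its peaks in the V2084D shSTUB1 libraries had their strongest summits at -452 bp and at 18 bp.

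EIF5A2 had folds of 5.32 and 3.57 in V2084D shSTUB1, on 9 and 5 reads, and 5.26 and 8.82 in V2084D, on 7 and 17 reads. All 4 summits lay 260 to 286 bp downstream of the start site, outside the printed window, while the 3 widest of the 4 peaks reached into it. EIF6 had 6.73 and 5.36 in V2084D shSTUB1 and 5.56 and 6.82 in V2084D. The summits of the strongest peaks of V2084D shSTUB1 and of V2084D replicate 2 lay between -348 and -56 bp from the EIF6 start site. The peaks of the 2 V2084D shSTUB1 libraries, at chr20:35284503-35284950 and chr20:35285020-35285424, did not overlap. The peak of V2084D replicate 1, at chr20:35277961-35278163, lay beyond the far end of EIF6 and at the start of MMP24OS. At the start site EIF6 therefore did not have peaks in both V2084D libraries. In V2084D replicate 2 the peaks of these 6 genes rested on 11 to 17 reads. The members that had a peak in all libraries had 10 to 41 reads there, with a median of 24.5. All 6 genes thus lay inside that range but below its median.

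The count depended on the lists. Without WT replicate 1 it was 15 of 51, against 12% of all genes. With every list cut to its strongest 7234 peaks, the length of the shortest, it was 2 for V2084D (EIF2B3 and EIF5A2, with 1.97% of all genes) and 2 for WT (EIF4A3 and EIF4E2, with 1.74% of all genes). With a -log10 q of at least 5 it was 4, against 3.44% of all genes, and EIF3A alone was among the 6. The estimated relative depth moved with the groups. Both WT libraries had the lowest values, 1.01 and 1 against 1.17 and 1.70 in V2084D, and the part of depth in the pattern was not tested.

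Between V2084D shSTUB1 and V2084D, 0 of 51 genes had peaks in both V2084D shSTUB1 libraries and neither V2084D library, against 0.365% of all genes and 0.734% of genes with a peak in at least 2 of the 4. The reverse held for 1, EIF3G, against 0.656% and 1.32%. EIF3G had no peak in V2084D shSTUB1, folds of 4.41 and 3.77 in V2084D, on 8 and 10 reads, and 5.23 on 8 reads in WT replicate 1. A WT library thus shared the peak, and at a window of 2000 bp a V2084D shSTUB1 library had one too, which left 0 genes. The count of genes found only in V2084D shSTUB1 was 6 without V2084D replicate 2, against 10.8% of all genes, and the count found only in V2084D was 5 without V2084D shSTUB1 replicate 1, against 3.32%.

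Between V2084D shSTUB1 and WT, 6 of 51 (11.8%) had peaks in both V2084D shSTUB1 libraries and neither WT library, against 7.07% of all genes, and 0 had the reverse, against 0.135% of all genes and 0.318% of those with a peak in at least 2 of the 4. Among genes with a peak in at least 2 of the 4 libraries the shares were 14.6% (6 of 41) and 16.6%. This comparison shares the WT libraries with the first, and 5 of the 6 genes, EIF3B, EIF3E, EIF3J, EIF5A2 and EIF6, are those already described. The remaining one was EIF4G1, the main scaffold of eIF4F, with folds of 5.86 and 6.67 in V2084D shSTUB1, on 12 and 13 reads, and 4.68 on 12 reads in V2084D replicate 2. These peaks lay at the far end of EIF4G1, next to the start of FAM131A, and those of the 2 V2084D shSTUB1 libraries did not overlap. Their summits were 15356 to 15977 bp from the nearest EIF4G1 start site, chr3:184320263, which lies inside the gene. At its own start sites EIF4G1 had a peak only in V2084D shSTUB1 replicate 1, at the gene start, chr3:184314606, with a fold of 6.17 on 9 reads. The count was 15 without WT replicate 1, against 15.8% of all genes. With lists of equal length it was 2 (EIF2B3 and EIF3B), where WT also had 2 (EIF2B1 and EIF4A1), against 1.75% of all genes for each. With a -log10 q of at least 5 it was 5, against 6.11% of all genes, with EIF3B and EIF4G1 among them.

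**Figure D3:**
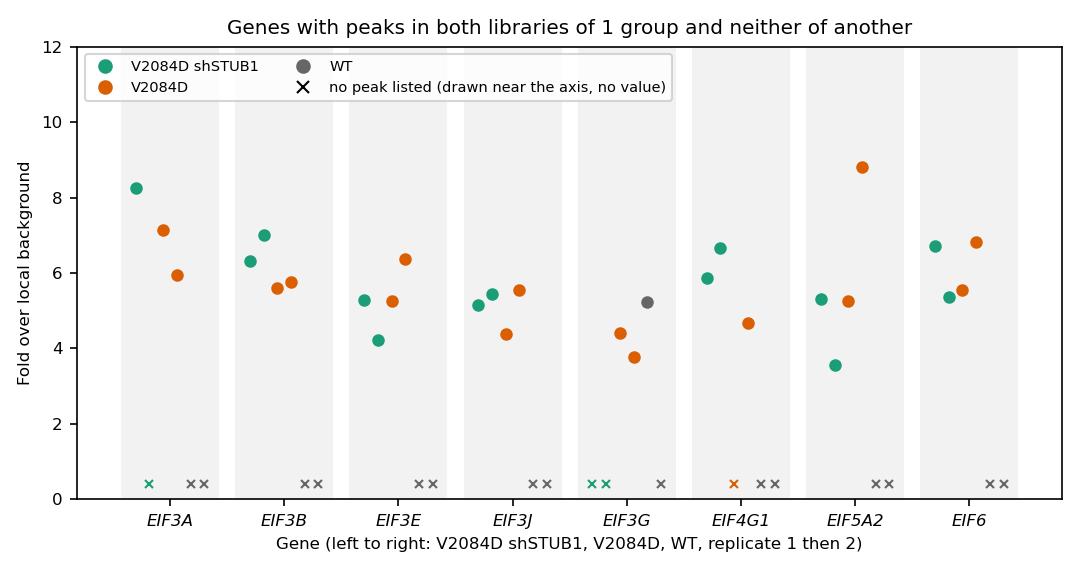
Fold over local background (y axis) of the strongest gene-end peak of the 8 genes listed in both libraries of 1 group and neither of another (x axis), with V2084D shSTUB1, V2084D and WT from left to right, and crosses where no peak was listed. The WT positions are crosses for all genes but EIF3G, whose only WT fold is 5.23, and the folds shown lie between 3.57 and 8.82.

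A start site was given by the promoter table for 43 of the 51 genes. EIF2S2, EIF3A, EIF3CL, EIF3E, EIF3G, EIF3H, EIF3L and EIF4EBP1 had no entry. Of the members with a start site and a peak, 92.9% to 96.4% had the strongest peak at the start rather than the far end across libraries, against 95.2% to 96.1% of all genes. Within 500 bp of the start site lay 85.7% to 92.9% of the members' summits, against 82.2% to 86.3%. The median summit over libraries was within 500 bp for 34 of 37 members, upstream of the start site for 29 and downstream for 8. The exceptions were EIF4E1B and EIF4G1, described above, and EIF5B, whose median summit lay at -885 bp, near the start of TXNDC9.

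**Figure D4:**
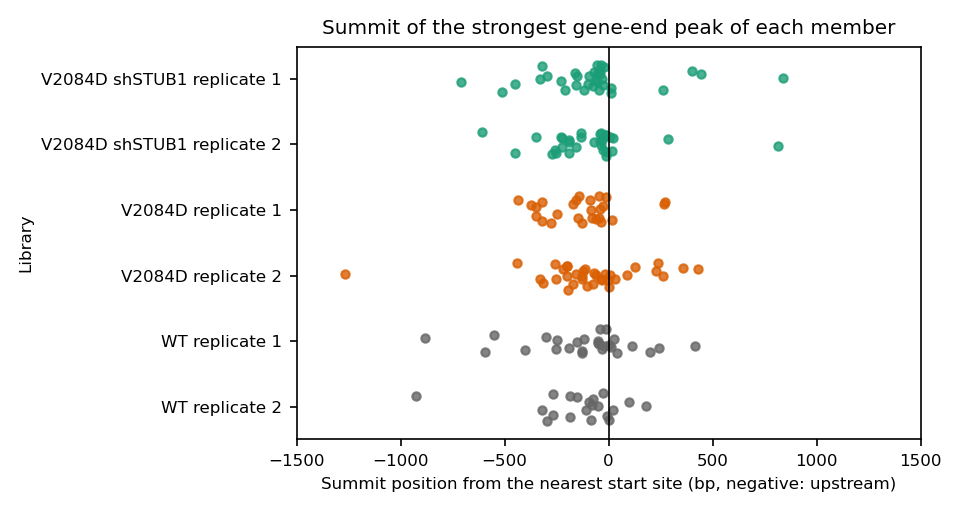
Position of the summit of the top gene-end peak at each member relative to its nearest RefSeq start site (x axis, bp, negative upstream), by library (y axis). The 173 points drawn lie between -1267 and 838 bp, most of them just upstream of the start site in every library, and 10 further summits beyond 1500 bp are not drawn.

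Counted at the start site alone, 36 and 32 of 43 members had a peak in V2084D shSTUB1 (52% and 44.1% of all genes with an entry), 27 and 37 in V2084D (34.1% and 58.9%), and 27 and 20 in WT (35.7% and 26.7%). At the start site, 4 of 43 members had peaks in each V2084D library and in neither WT library, against 5.27% of all genes with an entry. They were EIF3B, EIF3J, EIF4ENIF1 and EIF5A2. For V2084D shSTUB1 against WT there were 5, the same 4 and EIF6, against 7.35%. Peaks in all 6 libraries were found at the start sites of 14 of 43 members, against 17.6%, and in none at 5, against 37.9%. The other patterns held for 0 of 43, against 0.36% for V2084D shSTUB1 only and 0.708% for V2084D only between those groups, and 0.0569% and 0.177% for WT only against V2084D and against V2084D shSTUB1.

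A peak at an initiation factor gene could also belong to a neighbour. For 16 of the 45 members with a peak, the strongest peak reached within 1000 bp of an end of another protein-coding gene in at least 1 library. By library, 35.1% to 45.8% of the members' peaks did so, against 30.6% to 37.3% for all genes. In 8 pairs the start sites faced apart, as in a bidirectional promoter. These were EIF1AD with BANF1, EIF2A with SERP1, EIF2B1 with GTF2H3, EIF2S1 with ATP6V1D, EIF3I with TMEM234, EIF3K with MAP4K1, EIF4E2 with TIGD1 and EIF5B with TXNDC9. The start sites of EIF3I and TMEM234 were the closest, 54 bp apart, and those of EIF3K and MAP4K1 the farthest, 1235 bp apart. For EIF2B4 with SNX17, EIF3H with UTP23 and EIF3L with ANKRD54 a start site was missing, so their orientation was not assessed. Their nearest gene ends lay 278, 150 and 78 bp apart. The others were EIF3B with SNX8, EIF4A1 with SENP3, EIF4E1B with TSPAN17 and EIF4G1 with FAM131A. The last was EIF6 with FAM83C and, at its far end, MMP24OS and its neighbours. In such cases a peak cannot be assigned to one gene of the pair from these lists.

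The 250 bases upstream of the start sites of the 43 members were 64.8% G or C in the median, against 62% over 15813 promoters. GC boxes were found in 31 members (72.1%, against 55.8% of all promoters), CCAAT boxes in 17 (39.5%, against 34.4%) and ETS motifs in 8 (18.6%, against 11.7%). The E-box CACGTG was found in 11 (25.6%, against 7.79%), namely EIF1B, EIF2B3, EIF3F, EIF3K, EIF4A3, EIF4B, EIF4E, EIF4EBP3, EIF4G1, EIF4H and EIF5A2. In EIF5A2 it occurs at -187 and -162, as printed above. The NRF1 core was found in 2 members (4.65%, against 3.73%), the YY1 motif in 1 (2.33%, against 1.63%), TATAAA in 2 (4.65%, against 9.36%), TGANTCA, the AP-1 motif, in 2 (4.65%, against 5.0%), and the CRE motif TGACGTCA in 0 (against 2.29%). Both TATAAA matches were in genes without a gene-end peak, EIF4A2 and EIF4EBP3. CCAAT boxes were found in 11 of 15 members with peaks in all 6 libraries and in 5 of 22 with peaks in 1 to 5. For the E-box the counts were 2 of 15 and 8 of 22, for the GC box 11 of 15 and 16 of 22, and for the ETS motif 2 of 15 and 5 of 22. Of the 6 members with no gene-end peak, 4 had a GC box and 1 each a CCAAT box, an E-box and an ETS motif. The numbers of libraries are for gene-end peaks, which need not lie at the promoter searched. EIF4E1B, among the 15, and EIF4G1, among the 22, each had a start-site peak in only 1 library. EIF4ENIF1, among the 6, had start-site peaks in 4 libraries. These motif counts were not tested, and no share over all genes by number of libraries is given.

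The longest list, that of V2084D replicate 2, held a peak at all 45 members that had one anywhere. In it, the 18 members listed in all 5 other libraries had 10 to 41 reads at the summit, with a median of 24.5 and a median fold of 8.11. The 27 listed in fewer had 8 to 29 reads, with a median of 15 and a median fold of 6.82. By the number of other libraries with a peak, from 1 to 5, the median reads were 13.5, 12, 14.5, 19.5 and 24.5. Genes listed in fewer libraries therefore had on average lower peaks in this library, the one of highest estimated relative depth, with overlapping ranges. The read number of V2084D replicate 2 is the same measurement in a library that also enters the group comparisons, so this is a description.

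**Figure D5:**
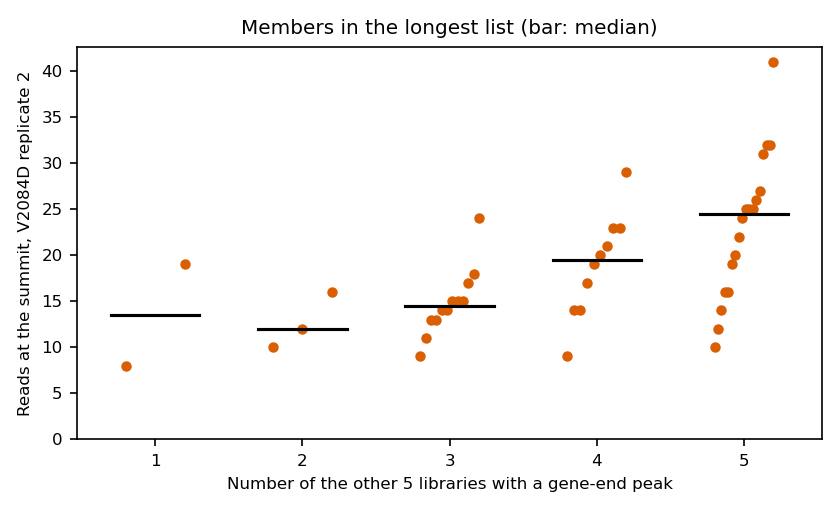
Reads at the summit of the strongest gene-end peak in V2084D replicate 2 (y axis) of its 45 members, by the number of the other 5 libraries with a gene-end peak at that gene (x axis), with bars at the medians. The medians are 24.5 reads for 5 other libraries and 13.5 and 12 reads for 1 and 2.

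Other genes of translation were counted in the same way from 4 lists of 39 matched genes. Together, 34 and 32 had a gene-end peak in V2084D shSTUB1, 24 and 35 in V2084D, and 25 and 24 in WT. Of the 39, 15 had one in all 6 libraries and 3 in none, against 15.8% and 41.8% of all protein-coding genes. Of the 17 initiation helpers, 9 had peaks in all 6, among them PABPC1, the poly(A)-binding protein, and DHX29, a helicase of scanning. Of 7 genes of eIF2 kinases and the stress response, 3 had peaks in all 6, EIF2AK3, ATF4 and PPP1R15B. EIF2AK2, the kinase that senses double-stranded RNA, had 6.79 and 6.96 in V2084D shSTUB1, 4.55 in V2084D replicate 2, and none in WT. The strongest EIF2AK2 peaks of the V2084D shSTUB1 libraries, at chr2:37157007-37157354 and chr2:37156434-37156688, did not overlap. Neither of them overlapped that of V2084D replicate 2, at chr2:37156009-37156208. Of 9 elongation genes none had peaks in all 6, with 7 and 5 in V2084D shSTUB1, 1 and 7 in V2084D, and 3 and 3 in WT. EEF2, the translocation factor, had none. Of 6 termination and recycling genes, 3 had peaks in all 6, ETF1, ABCE1 and HBS1L. In each V2084D library and in neither WT library there was 1 of the 39, against 5.07% of all genes. It was MKNK2, a kinase of eIF4E, with folds of 6.19 and 5.45 in V2084D. In both V2084D shSTUB1 libraries and neither WT library there were 3 of the 39, EEF2K, EIF2AK2 and RPS6KB2, against 7.07% of all genes.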

How the data were processed

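ATAC-seq of 6 libraries, 2 in each of 3 groups, was deposited as 1 list of peaks per library. Trimmomatic, Bowtie2, SAMtools and Picard, MACS2, and also bedtools and deepTools are named, with build hg38, per the submitters' processing notes. For versions, settings and any Tn5 read shift, nothing is given in the sources used here. Each deposited list gives a whole-number score (10 times -log10 q), the fold ratio over local background, the -log10 p and -log10 q, and the summit position, as the authors' caller wrote them.

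Peaks on chromosomes 1 to 22 and X were kept, which left out 2.07% to 2.60% of summits per library. A peak within 1000 bp of a RefSeq gene start or end (GRCh38.p14, the same build as hg38) counted for that gene, and the summit with the highest -log10 q was the gene's strongest. Whole reads at each summit were recovered from the deposited fold, made with a pseudocount of 1, and -log10 p, within 0.001 in -log10 p, for 99.99% to 100% of summits. PCR reads are not independent molecules, so read numbers carry more than counting error. The members, their complexes and the lists were chosen with earlier results of these data known. Presence and ranks were counted with no test, and the number of members with a peak was compared by a two-sided exact permutation test over libraries. The genes named are those with a group pattern, those with no peak, the 2 highest-ranked of each complex, the first and last by rank, and those sharing a peak, and other members are named for their role. Alternatives were windows of 500 and 2000 bp, the start site alone, the summit inside the window, lists cut to one length, a -log10 q of at least 5, overlapping peaks, a replicate block and each library left out. Counting was tested on simulated peaks. Python 3.11.15, pandas 2.3.3, numpy 2.4.6, scipy 1.17.1 and matplotlib 3.10.9 were used.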

Additional observations from a re-analysis of the deposited data

How the results depend on the processing

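A missing peak is one not called at that depth, and peaks at the genes compared rested on few reads. Of the alternatives run, 128 values kept their direction or stayed within 1.5 times, 21 moved and 4 changed sign. Some of these values could not change, because leaving out a library that a comparison does not use returns its main value. For V2084D against WT, for instance, 6 genes and 5.07% of all genes remained without either V2084D shSTUB1 library. The 128 are thus no measure of how stable the results are. Genes with a peak in both V2084D and neither V2084D shSTUB1 library numbered 0 at a window of 2000 bp (0.741% of all genes), 0 at the start site alone (0.561%) and 3 with lists of equal length (1.68%). Genes in both V2084D shSTUB1 and neither V2084D library numbered 1 at a -log10 q of at least 5 (0.466% of all genes) and 3 with equal lists (1.28%). Genes with no peak numbered 13 at the start site alone, where members without a promoter entry cannot have one. Genes in every library numbered 5 at a -log10 q of at least 5 and 11 with equal lists, counts given without the share of all genes at these settings. The mean over libraries of the median percentile was 56.4 at that limit of -log10 q, against 72.3. With equal lists, 2 genes were in V2084D and 2 in WT in their comparison, against 1.97% and 1.74% of all genes. In theirs, 2 were in V2084D shSTUB1 and 2 in WT, against 1.75% for each. V2084D shSTUB1 minus V2084D in genes with a peak was 2 at the start site alone and 2 at a -log10 q of at least 5, against -0.5. The cause of these changes was not tested.

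Leaving out each library in turn gave 6 to 15 genes in V2084D and neither WT library, against 5.07% to 18.9% of all genes. The reverse held for 0 to 2, against 0.0501% to 3.49%. The 15 genes came without WT replicate 1, against 12%, and the 18.9% came without V2084D replicate 1, with 8 genes. Where a compared group lost a library, its part of the rule rested on a single library. In V2084D shSTUB1 and neither WT library there were 6 to 15, against 7.07% to 15.8%, and 0 to 2 the reverse, against 0.135% to 0.981%. In V2084D shSTUB1 and neither V2084D library there were 0 to 6, against 0.365% to 10.8%, and 1 to 5 the reverse, against 0.656% to 6.24%. Those 5 came without V2084D shSTUB1 replicate 1, against 3.32%, and the 6.24% came without V2084D replicate 1, with 2 genes. Genes in every library ran from 18 to 24, with 6 in none throughout, both given without the share of all genes. The median percentile ran from 69.8 to 75.3. The differences ran from 6.5 to 16.5 for V2084D minus WT, from 6 to 16 for V2084D shSTUB1 minus WT, and from -5 to 4 for V2084D shSTUB1 minus V2084D.

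The titles number the replicates, but not every pair of groups deviated together by number: the correlations over 8455 genes were 0.119 for V2084D and WT, 0.00307 for V2084D shSTUB1 and V2084D, and -0.0232 for V2084D shSTUB1 and WT, so the libraries were taken to share only a number. With the replicate number as a block, the differences stay 11.5 genes (exact permutation p = 0.5), -0.5 (p = 1, exact) and 11 (p = 0.5, exact), where 0.5 is the smallest p possible.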
